A study of Mus musculus with 6 samples.

Results

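The muscle acetylcholine receptor and the proteins that gather it at the neuromuscular junction are described here through 10 genes. They were chosen by symbol as the receptor subunit genes Chrna1, Chrnb1, Chrnd, Chrng and Chrne and the agrin pathway genes Agrn, Lrp4, Musk, Dok7 and Rapsn. Each symbol matched 1 Ensembl identifier, so the members are 10 of the 55414 genes in the count table. RNA was sequenced from C2C12 cells, a mouse myoblast line labelled as wild type that grew in medium with serum. In the siUsf2 group the cells were transfected with an siRNA against Usf2, an E-box-binding transcription factor, and in the siControl group with the negative control siRNA. Each group has 3 libraries, named here siUsf2 1 to 3 and siControl 1 to 3, and the time between transfection and harvest is not given in the sources used here.

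The receptor is a pentameric ion channel of the muscle membrane that opens when a motor nerve releases acetylcholine. Fetal muscle and cultured muscle cells build it from alpha, beta, delta and gamma subunits, and adult innervated muscle replaces gamma with epsilon. Agrin, secreted by the nerve and also made by muscle, binds the receptor Lrp4, which activates the kinase MuSK. Dok7 is the adaptor that MuSK needs inside the cell, and rapsyn is the scaffold that holds the receptors in dense clusters. In muscle cell lines the subunit genes are known to become more active as myoblasts differentiate, through E-boxes that myogenic factors such as myogenin bind.

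Total counts were 15817183, 14932880 and 3414565 in siUsf2 1 to 3, against 14790997 to 17715250 in the siControl libraries. Usf2 itself was at 17.1 and 15.3 CPM (counts scaled to 1000000 per library) in siUsf2 1 and 2, and at 30.8 CPM in siUsf2 3, against 23.0 to 31.2 CPM across the siControl libraries. By this measure the library labelled siUsf2 3 goes against its label in the targeted gene, and its profile also stands apart, with r of 0.914 to 0.917 to the other libraries, which among themselves ranged from 0.994 to 0.997 (log2(CPM + 1), across genes). Pseudogenes held 0.974% of its counts, against 14.0% to 15.3% in the other 5 libraries. No pseudogene transcript aligned to a member over at least 50% of its length, among 13493 pseudogenes tried. Members were therefore tested without this library, as siUsf2 1 and 2 against siControl 1 to 3 (5 libraries), and with it (6 libraries), and its own values were kept apart. The labels do not say whether replicates were separate cultures, so p-values measure only the spread between these libraries, which may be technical.

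As a check of the cell type, the myoblast markers Myod1, Myf5, Des, Cdh15 and Pax7 summed to 1599 and 1678 CPM in siUsf2 1 and 2 and 2168 CPM in siUsf2 3, against 1841 to 2311 CPM in siControl. Most of these sums was Des, at 1130 and 1159 CPM in siUsf2 1 and 2 and 1584 CPM in siUsf2 3, against 1267 to 1607 CPM in siControl. By edgeR in the 5 libraries, Des (-0.35, adjusted p = 0.0146), Cdh15 (-0.75, adjusted p = 1.28e-05) and Myod1 (-0.29, adjusted p = 0.0387) were called lower, Myf5 higher (0.37, adjusted p = 0.0325), and Pax7 was not called (-0.03, adjusted p = 0.904). The Myod1 call in edgeR ended without siControl 1 (-0.26, adjusted p = 0.168) or siControl 2 (-0.24, adjusted p = 0.131). It also ended under upper-quartile scaling (-0.25, adjusted p = 0.0703) and with library size alone (-0.27, adjusted p = 0.0514). Its log2 fold change was -0.20 without siUsf2 1 and -0.38 without siUsf2 2. The call did not hold in either of these fits, each of which leaves 1 siUsf2 library. Markers of differentiating muscle (Myog, Mymk, Ckm, Acta1 and Myh3) summed to 784 and 872 CPM in siUsf2 1 and 2 and 1541 CPM in siUsf2 3, against 3572 to 3803 CPM in siControl. All 5 differentiation markers were called lower in the 5 libraries. Their part in the receptor and junction results below was not tested, and in these bulk libraries fewer differentiating cells and less RNA per cell cannot be told apart. Motor neuron markers (Chat, Slc18a3, Slc5a7, Isl1 and Mnx1) summed to at most 0.879 CPM in any library, with Chat, Slc18a3 and Mnx1 at 0 in all 6. Lists of neuron, leukocyte and endothelial markers summed to at most 5.27, 3.37 and 2.05 CPM.

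In siUsf2 1 and 2 the 4 subunit genes of the fetal receptor and the pathway genes Dok7, Lrp4 and Rapsn were lower than in siControl, while Musk and Agrn were not called. That is 7 members lower, 0 higher and 2 not called among the 9 tested (edgeR, Benjamini-Hochberg adjusted p below 0.05 over 17217 genes). DESeq2 and limma-voom also called 7 lower and 0 higher, and 8 members were at an unadjusted p below 0.05 in edgeR, as were 24.9% of all genes. Over all genes tested, 6.40% were called lower and 4.97% higher. With 1 of the 5 libraries left out, these shares were lowest without siUsf2 1 (2.90% lower and 1.95% higher) and highest without siControl 3 (11.6% and 9.43%), while 6 to 7 members were called lower. The median log2 fold change was -0.64 over the 9 members and -0.01 over all genes. Chrne had too few counts to be tested. The decreases ran from -0.49 on the log2 scale for Rapsn to -1.84 for Dok7.

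**Figure D1:**
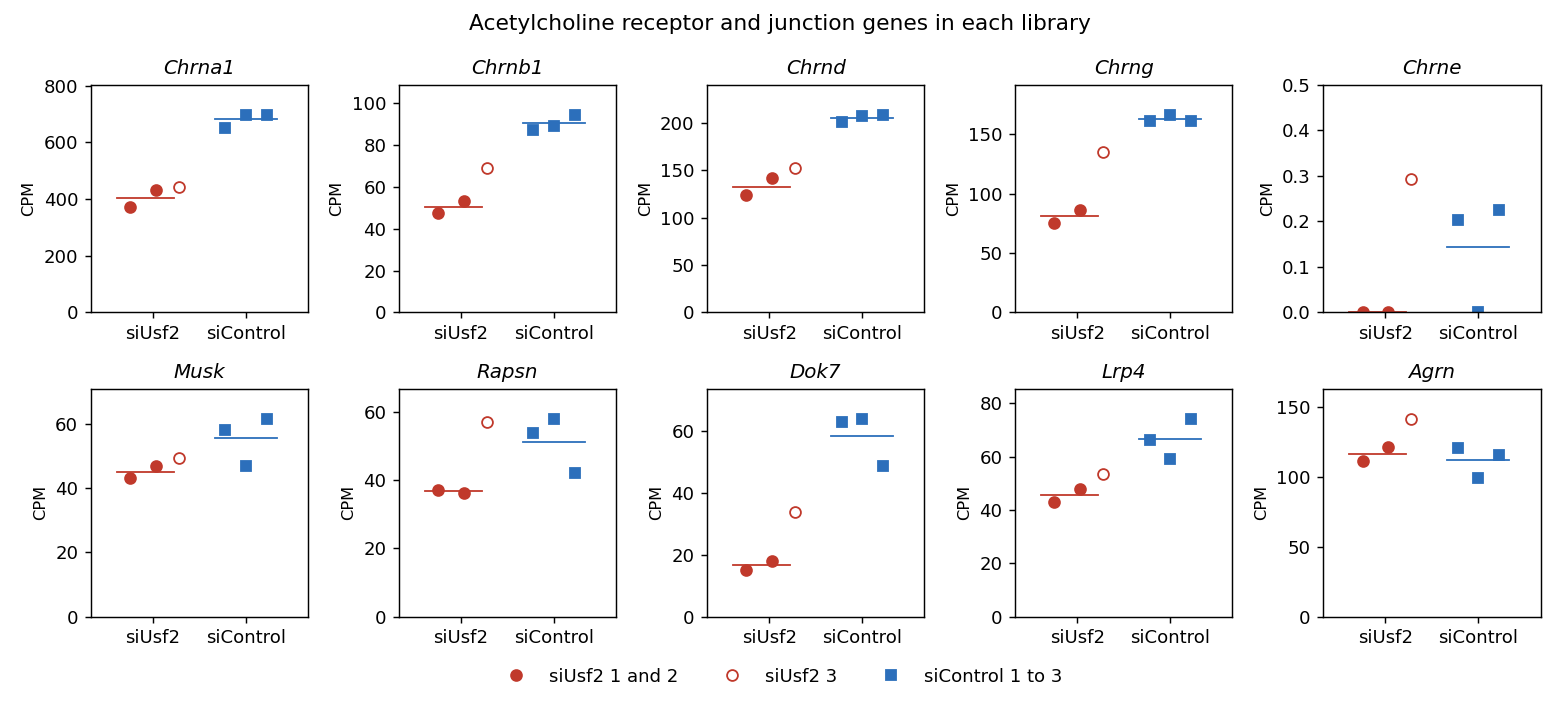
Level of each of the 10 genes in each library, in CPM on linear axes that start at 0. Filled circles are siUsf2 1 and 2, open circles siUsf2 3 and squares siControl 1 to 3, with lines at the means of siUsf2 1 and 2 and of siControl. For Chrna1, Chrnb1, Chrnd, Chrng, Dok7 and Lrp4 all 3 siUsf2 points lie below all siControl points. For Agrn, Musk, Chrne and Rapsn the groups overlap, for Rapsn through siUsf2 3 alone.

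Among the subunits, Chrna1 encodes the alpha subunit, which carries the acetylcholine binding sites and is present as a pair in each receptor. The gene spans chromosome 2 from 73563215 to 73580338 on the minus strand of GRCm38, with 9 exons in its longest transcript. Chrna1 was at 373 and 433 CPM in siUsf2 1 and 2 and 444 CPM in siUsf2 3 (95% Poisson interval 422 to 467), against 649.6, 698 and 698 CPM in siControl 1 to 3. All 3 siUsf2 libraries were below all siControl libraries. In the 5 libraries its log2 fold change was -0.77 (95% interval -0.96 to -0.59, adjusted p = 3.07e-07 by edgeR, SE 0.09).

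Chrng, the gamma subunit of the fetal receptor, was at 75.6 and 86.4 CPM in siUsf2 1 and 2 and 135 CPM in siUsf2 3 (123 to 148), against 161, 167 and 161 CPM in siControl 1 to 3. The library labelled siUsf2 3 lay between the other siUsf2 libraries and siControl. The mean was 81.0 ± 7.62 CPM in siUsf2 1 and 2 and 163 ± 3.28 CPM in siControl (SD, n = 2 and n = 3). Its log2 fold change of -1.02 (adjusted p = 2.17e-09 by edgeR, SE 0.09) was the largest among the subunits in the 5 libraries.

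Chrnb1, the beta subunit gene on the minus strand of chromosome 11 (69784036 to 69795943), was at 47.4 and 53.4 CPM in siUsf2 1 and 2 and 68.8 CPM in siUsf2 3 (60.3 to 78.2), against 87.4, 89.2 and 94.5 CPM in siControl 1 to 3. Its log2 fold change was -0.86 (adjusted p = 2.12e-07 by edgeR, SE 0.10), and siUsf2 3 again stood between the groups. Chrnd, the delta subunit, was at 124 and 142 CPM in siUsf2 1 and 2 and 152 CPM in siUsf2 3 (139 to 166), against 201, 207 and 209 CPM in siControl 1 to 3. Its log2 fold change was -0.64 (adjusted p = 6.66e-06 by edgeR, SE 0.09). Chrnd and Chrng are neighbours on the plus strand of chromosome 1, with 4586 bases between Chrnd, which ends at 87200070, and Chrng, which starts at 87204657.

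Chrne, the epsilon subunit gene of the adult receptor (chromosome 11, 70614883 to 70619216, minus strand), had 0 reads in siUsf2 1 and 2 and 1 read in siUsf2 3, against 3, 0 and 4 reads in siControl 1 to 3. At these depths a count of 0 allows up to 0.190 and 0.201 CPM (3 counts) in siUsf2 1 and 2, so no difference between groups was detectable. Per length of exon, Chrng made up 100%, 100% and 99.5% of Chrng plus Chrne in siUsf2 1 to 3, against 99.7%, 100% and 99.7% in siControl 1 to 3. The gamma subunit thus made up nearly all of this pair in each of the 6 libraries. Poisson intervals and the limits for counts of 0 cover counting error only.

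Levels of different genes were compared per length, as RPKM (CPM per kilobase of annotated exon). In siUsf2 1 and 2 the means were 91.8 ± 9.74 RPKM for alpha, 40.3 ± 3.92 for delta, 19.9 ± 1.66 for beta and 19.5 ± 1.83 for gamma (SD, n = 2 each). In siControl the alpha subunit also led, with 156 ± 6.41 RPKM, followed by delta with 62.5 ± 1.31, gamma with 39.1 ± 0.789 and beta with 35.7 ± 1.47 (SD, n = 3 each). The beta and gamma levels overlapped in siUsf2 1 and 2, at 18.7 and 21.1 RPKM and at 18.2 and 20.8 RPKM, but did not overlap in siControl. Annotated exons cover 4163 bases in Chrng and 2531 in Chrnb1, whereas their longest transcripts have 2780 and 2155 bases. The order and overlap of beta and gamma in siUsf2 1 and 2 therefore depend on the length used. The ratio of gamma to alpha per length was 0.214 and 0.210 in siUsf2 1 and 2, against 0.261, 0.251 and 0.243 in siControl 1 to 3. That of delta to alpha was 0.442 and 0.437 in siUsf2 1 and 2, against 0.412, 0.396 and 0.398 in siControl. The library labelled siUsf2 3 had a gamma to alpha ratio of 0.321, above all others. These ratios were chosen after the values were seen and are given without a test.

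**Figure D2:**
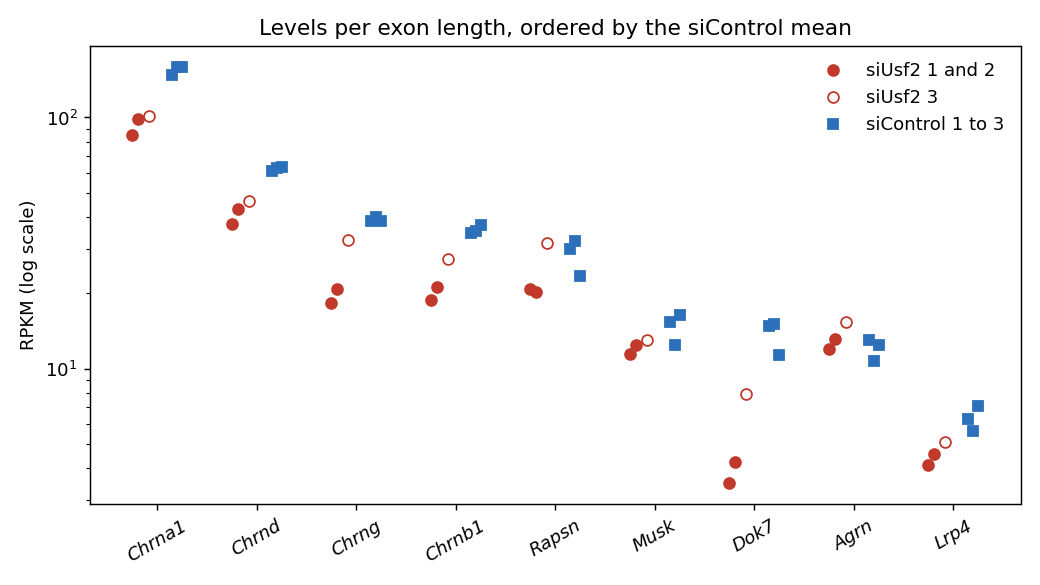
Levels per exon length (RPKM, log scale) of the 9 members with enough reads to test, ordered by their siControl mean, with Chrne left out because it is at 0 in 3 libraries. Filled circles are siUsf2 1 and 2, open circles siUsf2 3 and squares siControl 1 to 3. Dok7 stands beside Lrp4 at the low end in siUsf2 1 and 2, and beside Musk and Agrn in siControl.

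The promoter windows of the subunit genes are shown because these genes were lower together and because USF2 and the myogenic factors are both known to bind E-boxes. The windows are RefSeq's, on GRCm38.p6, from 250 bases before to 50 bases after an annotated start. RefSeq windows were found for 7 members, and those of Chrnd, Rapsn and Lrp4 are not shown. In the sequences below, capitals mark every E-box, CANNTG, a motif that reads the same on both strands. The window of Chrna1 is chr2:73580289-73580588 on the minus strand, that of Chrng chr1:87205561-87205860 on the plus strand and that of Chrnb1 chr11:69795888-69796187 on the minus strand.
Chrna1: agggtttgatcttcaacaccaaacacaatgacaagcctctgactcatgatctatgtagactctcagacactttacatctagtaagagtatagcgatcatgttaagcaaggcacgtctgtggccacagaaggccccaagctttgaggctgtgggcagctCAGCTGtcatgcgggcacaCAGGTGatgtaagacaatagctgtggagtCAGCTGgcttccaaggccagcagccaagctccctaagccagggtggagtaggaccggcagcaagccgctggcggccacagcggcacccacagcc
Chrng: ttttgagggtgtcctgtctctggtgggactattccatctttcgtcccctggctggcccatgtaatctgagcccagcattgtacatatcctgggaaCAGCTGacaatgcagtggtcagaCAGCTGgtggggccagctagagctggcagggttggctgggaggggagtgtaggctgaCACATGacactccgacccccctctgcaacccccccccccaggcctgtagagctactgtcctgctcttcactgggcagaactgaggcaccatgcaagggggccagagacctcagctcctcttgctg
Chrnb1: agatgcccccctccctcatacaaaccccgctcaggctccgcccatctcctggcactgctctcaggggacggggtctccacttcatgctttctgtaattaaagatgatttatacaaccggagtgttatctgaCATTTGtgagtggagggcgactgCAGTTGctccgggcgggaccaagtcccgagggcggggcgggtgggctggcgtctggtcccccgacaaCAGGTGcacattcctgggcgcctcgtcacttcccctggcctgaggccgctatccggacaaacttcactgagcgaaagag

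Each of these windows holds 3 E-boxes. At least 1 E-box was present in 72.3% of all 32851 promoter windows and 3 or more in 17.6%. The form CAGCTG, which is 1 of the CANNTG forms, occurs at -92 and -44 from the start in Chrna1 and at -155 and -132 in Chrng, and it was present in 16.3% of all windows. The form CACGTG, the sequence that USF proteins are best known to bind, was found in 7.15% of all windows and in none of the 9 windows of the members. The single window of Chrne, the subunit that was barely read, holds 1 E-box, a CAGCTG at -138. A motif match describes the letters of the window only. The RefSeq start used for Chrng lies inside the longer GENCODE span of the gene given above.

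Of the agrin pathway, the adaptor gene Dok7 differed most. It lies on chromosome 5 at 35056766 to 35087839 (GRCm38, plus strand). Dok7 was at 14.9 and 18.1 CPM in siUsf2 1 and 2 and 34.0 CPM in siUsf2 3 (28.1 to 40.7), against 63.0, 64.0 and 48.6 CPM in siControl 1 to 3. All 3 siUsf2 libraries were below all siControl libraries, with siUsf2 3 above the other pair. Its log2 fold change in the 5 libraries was -1.84 (95% interval -2.11 to -1.56, adjusted p = 7.70e-11 by edgeR, SE 0.13), a level 0.280 times that of siControl.

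Musk, on the plus strand of chromosome 4 from 58285960 to 58374303, encodes the kinase that Dok7 binds. It was at 43.0 and 46.7 CPM in siUsf2 1 and 2 and 49.2 CPM in siUsf2 3 (42.0 to 57.2), against 57.9, 46.7 and 61.5 CPM in siControl 1 to 3. The groups overlapped through siControl 2. Its log2 fold change was -0.32 (SE 0.11, 95% interval -0.55 to -0.08) and did not pass the test (edgeR adjusted p = 0.0689). Musk was called lower without siControl 2, at -0.43 (edgeR adjusted p = 0.0172), and with no filter on low counts, at -0.33 (edgeR adjusted p = 0.0386). Per length, Dok7 stood at 0.307 and 0.343 of the Musk level in siUsf2 1 and 2 and at 0.610 in siUsf2 3, against 0.961, 1.21 and 0.698 in siControl 1 to 3, values chosen after they were seen and not tested. The size of these ratios, but not their order across libraries, depends on the exon length used.

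Lrp4, the agrin receptor, lies on chromosome 2 at 91457511 to 91513779, on the same strand as Rapsn and 411781 bases from it. Lrp4 was at 43.2 and 48.0 CPM in siUsf2 1 and 2 and 53.6 CPM in siUsf2 3 (46.1 to 61.9), against 66.1, 59.2 and 74.2 CPM in siControl 1 to 3. The groups did not overlap, and the log2 fold change was -0.56 (adjusted p = 6.51e-04 by edgeR, SE 0.11). Rapsn, the clustering scaffold (chromosome 2, 91035620 to 91045729), was at 37.2 and 36.3 CPM in siUsf2 1 and 2 and 57.1 CPM in siUsf2 3 (49.4 to 65.7), against 54.0, 58.1 and 42.1 CPM in siControl 1 to 3. The library labelled siUsf2 3 thus lay within the siControl range. Rapsn shares 4 exon bases with an antisense transcript, Gm13778. Its log2 fold change in the 5 libraries was -0.49 (adjusted p = 0.00628 by edgeR, SE 0.12), a call that ended without siControl 1 (-0.46, adjusted p = 0.0559) and without siControl 2 (-0.40, adjusted p = 0.0606).

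Agrn, on the minus strand of chromosome 4 from 156165290 to 156197488, encodes agrin, of which the neural splice form is the active clustering signal. Gene counts do not separate its splice forms. Agrn was at 111 and 122 CPM in siUsf2 1 and 2 and 142 CPM in siUsf2 3 (129 to 155), against 121, 99.4 and 116 CPM in siControl 1 to 3. The groups overlapped, with siUsf2 1 inside the siControl range and siUsf2 3 above it. The siUsf2 2 level, 121.74 CPM, was also above the highest siControl level, 120.75 CPM in siControl 1. The log2 fold change was 0.05 in the 5 libraries, with a 95% interval of -0.15 to 0.24 (edgeR adjusted p = 0.819).

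Per length, the pathway genes in siUsf2 1 and 2 were ordered as Rapsn with 20.4 ± 0.370 RPKM, Agrn with 12.6 ± 0.793, Musk with 11.9 ± 0.702, Lrp4 with 4.34 ± 0.325 and Dok7 with 3.87 ± 0.534 (SD, n = 2 each). In siControl Rapsn had 28.5 ± 4.60 RPKM, Musk 14.7 ± 2.04, Dok7 13.7 ± 2.02, Agrn 12.1 ± 1.20 and Lrp4 6.33 ± 0.718 (SD, n = 3 each). Dok7 and Lrp4 overlapped in siUsf2 1 and 2, as did Agrn and Musk, whereas Musk, Dok7 and Agrn overlapped in siControl. Rapsn also overlapped with the beta and gamma subunit genes in siUsf2 1 and 2 and lay below both in siControl. Dok7 has 4275 exon bases but 2779 in its longest transcript, so its place beside Musk and Agrn in siControl depends on the length used. The overlap of Rapsn with gamma in siUsf2 1 and 2 does too.

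The promoter windows of Musk, Dok7 and Agrn are shown as those of a kinase that was not called, of the member with the largest decrease and of the member with a fold change near 0. They are chr4:58285712-58286011 (plus strand), chr5:35056516-35056815 (plus strand) and chr4:156197439-156197738 (minus strand), with E-boxes in capitals as before.
Musk: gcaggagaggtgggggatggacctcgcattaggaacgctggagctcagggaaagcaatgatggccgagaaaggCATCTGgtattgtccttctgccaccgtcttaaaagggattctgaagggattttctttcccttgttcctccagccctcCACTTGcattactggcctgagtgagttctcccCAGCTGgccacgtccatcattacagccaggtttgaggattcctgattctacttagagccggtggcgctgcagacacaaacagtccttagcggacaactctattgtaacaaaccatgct
Dok7: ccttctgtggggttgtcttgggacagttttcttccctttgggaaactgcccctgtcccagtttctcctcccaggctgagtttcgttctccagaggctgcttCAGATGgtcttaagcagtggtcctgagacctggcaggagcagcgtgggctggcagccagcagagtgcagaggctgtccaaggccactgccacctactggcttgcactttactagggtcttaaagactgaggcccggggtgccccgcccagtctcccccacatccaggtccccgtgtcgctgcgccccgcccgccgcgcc
Agrn: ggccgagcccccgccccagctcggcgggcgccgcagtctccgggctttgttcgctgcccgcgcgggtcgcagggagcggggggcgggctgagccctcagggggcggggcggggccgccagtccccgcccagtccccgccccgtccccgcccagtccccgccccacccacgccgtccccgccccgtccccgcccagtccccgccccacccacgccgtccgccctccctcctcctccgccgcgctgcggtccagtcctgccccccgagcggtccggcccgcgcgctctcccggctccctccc

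The Musk window holds 3 E-boxes, at -177, -100 and -68 from the start, the last of them a CAGCTG. The Dok7 window holds 1, at -149, and a second Dok7 window holds 0. The Agrn window shown holds 0, and the window of a second Agrn start holds 1, at -92.

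**Figure D3:**
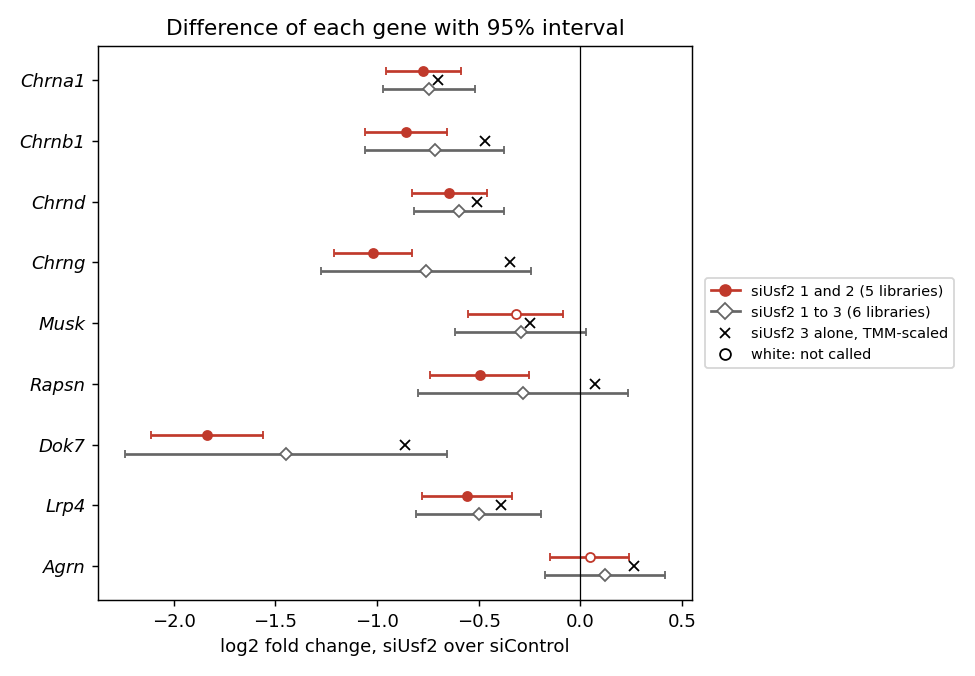
Log2 fold change of siUsf2 over siControl for the 9 members tested, with 95% intervals derived from the F statistics of edgeR. Circles are siUsf2 1 and 2 against siControl (5 libraries), diamonds siUsf2 1 to 3 against siControl (6 libraries) and crosses the library labelled siUsf2 3 alone against the siControl mean. Filled symbols are called at an adjusted p below 0.05, which is so for 7 members in the 5 libraries and for none in the 6.

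With the library labelled siUsf2 3 included, edgeR called 0 of the 9 members in either direction, against 0.0420% of 16662 genes lower and 0% higher. At an unadjusted p below 0.05 were 6 of the 9 members and 10.5% of all genes. DESeq2 called 4 members lower, namely Chrna1, Chrnb1, Chrnd and Dok7, where it called 2.46% of genes lower. Limma-voom called 1, Chrna1, where it called 0.510% lower. The log2 fold change over 6 libraries was -0.75 for Chrna1 (adjusted p = 0.0694 by edgeR, SE 0.09), -0.72 for Chrnb1, -0.60 for Chrnd, -0.76 for Chrng, -1.45 for Dok7, -0.50 for Lrp4, -0.29 for Musk, -0.28 for Rapsn and 0.12 for Agrn. Over the 9 members the adjusted p from edgeR ran from 0.0694 for Chrna1 to 0.802 for Agrn. The biological coefficient of variation was 40.0% with this library and 9.25% without it.

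Described without a test, all 3 siUsf2 libraries lay below all siControl libraries for 6 of the 9 members, Chrna1, Chrnb1, Chrnd, Chrng, Dok7 and Lrp4. This was so for 11.2% of all genes tested. In siUsf2 3 alone the same 6 members lay below every siControl library, as did 42.1% of genes, and Agrn lay above every one, as did 39.6%. In CPM each of the 9 members was higher in siUsf2 3 than in siUsf2 1 and 2, as were 41.3% of genes. Scaled by TMM this held for 7 of the 9 and 37.0% of genes, with Chrna1 and Musk below siUsf2 2. In CPM the Poisson intervals of siUsf2 3 also took in the siUsf2 2 level for Chrna1, Chrnd, Musk and Lrp4. The 6 members below siControl in all 3 siUsf2 libraries were 6 under TMM and under upper-quartile scaling too. Usf2 was also higher in siUsf2 3 than in siUsf2 1 and 2. Scaled by TMM, the log2 ratio of siUsf2 3 to the siControl mean was -0.70 for Chrna1, -0.86 for Dok7, -0.35 for Chrng and 0.07 for Rapsn, with a median of -0.10 over all genes.

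Profiles of the members across the 6 libraries were compared by the root mean square difference of their centred log2 CPM. Chrna1 and Chrnd were close, at 0.08, as were Chrna1 and Chrnb1 at 0.11, Chrnb1 and Chrng at 0.11, and Musk and Lrp4 at 0.12. Dok7 and Agrn were farthest apart, at 0.87. Among 9635 protein-coding genes whose mean log2 CPM was 3 or more, the 3 genes nearest to Chrna1 were Spry1, an inhibitor of receptor tyrosine kinase signalling, at 0.04, Gprc5c, an orphan receptor, at 0.06, and Dlgap4, a scaffold protein, at 0.07. Spry1 was at 28.7, 33.3 and 35.7 CPM in siUsf2 1 to 3, against 54.0, 54.0 and 53.2 CPM in siControl 1 to 3. The 3 nearest to Musk were Dip2c at 0.05, Kansl1l at 0.06 and Cdh2, the adhesion protein N-cadherin, at 0.06.

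Other genes of the junction were described from 6 lists of 82 genes in all, in the 5 libraries. Over the 66 list genes tested, 15 were called lower (22.7%) and 4 higher (6.06%), where 6.40% and 4.97% of all genes were; the higher share is near that of all genes. The higher count, like that over all genes, moved when a library was left out, to 2 without siUsf2 1, 1 without siUsf2 2, 2 without siControl 1, 2 without siControl 2 and 8 without siControl 3. The lower count was 7 without siUsf2 1. Over all genes the higher count of 855 moved to 349 without siUsf2 1, 477 without siUsf2 2, 469 without siControl 1, 485 without siControl 2 and 1596 without siControl 3. In the 6 libraries edgeR called no list gene, with 17 of 66 at an unadjusted p below 0.05, beside 10.5% of all genes. There DESeq2 called 9 lower and 1 higher, and limma-voom 2 lower and 0 higher. Over all genes DESeq2 called 2.46% lower and 1.78% higher, and limma-voom 0.510% and 0.114%.

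In the list of synaptic matrix and postsynaptic membrane proteins, 6 of 18 tested genes were lower, 3 higher and 9 not called, with a median of -0.18. Over all genes, 6.40% were lower and 4.97% higher. Limma-voom called 6 lower and 2 higher, without Lamb2, a laminin chain (adjusted p = 0.0566). In edgeR the Lamb2 call also ended with no filter (adjusted p = 0.0615) and without siControl 1 (adjusted p = 0.0974) or siControl 2 (adjusted p = 0.0720). It did not hold without siUsf2 1 or without siUsf2 2 either. Sntb1, a syntrophin of the postsynaptic dystrophin complex, was at 59.6, 56.6 and 68.2 CPM in siUsf2 1 to 3, against 111, 97.3 and 114 CPM in siControl (log2 fold change -0.90, adjusted p = 7.59e-08 by edgeR, SE 0.10). Scn4a, the sodium channel of the muscle membrane, was low throughout, at 0.632, 1.54 and 1.17 CPM in siUsf2 1 to 3 against 5.81, 3.56 and 5.59 CPM in siControl 1 to 3, with a log2 fold change of -2.21 (adjusted p = 1.19e-04 by edgeR, SE 0.37). Dag1, the dystroglycan gene, fell by 0.42 (adjusted p = 9.95e-04), and leaving out siUsf2 1 ended that call (adjusted p = 0.0663). Lama4, a laminin chain of the synaptic matrix, rose by 0.47 (adjusted p = 6.48e-04 by edgeR, SE 0.09), with 129, 126 and 157 CPM in siUsf2 1 to 3 and 90.3, 84.2 and 99.0 CPM in siControl 1 to 3. Ache, the synaptic acetylcholinesterase, was at 2.40, 2.61 and 2.64 CPM in siUsf2 against 3.45, 2.87 and 3.61 CPM in siControl and was not called (adjusted p = 0.431), a gene named after its values were seen.

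Among 21 tested partners of MuSK signalling and receptor clustering, 1 was lower, 0 were higher and 20 were not called, with a median of 0.01 and 5 at an unadjusted p below 0.05. These counts are near the shares over all genes, 6.40% called lower and 24.9% at an unadjusted p below 0.05. DESeq2 and limma-voom also called 1 lower and 0 higher. The gene called was Csnk2b, a subunit of casein kinase 2, which phosphorylates MuSK. It was at 32.7 and 37.7 CPM in siUsf2 1 and 2 and 79.1 CPM in siUsf2 3, against 46.6 to 48.4 CPM in siControl (log2 fold change -0.44, adjusted p = 0.00645 by edgeR, SE 0.11). Leaving out siUsf2 1 ended the call (adjusted p = 0.241). Next by p were Dnaja3 at -0.33, Macf1 at -0.32 and Pak1 at 0.21, none of them called.

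Of 8 tested neuregulin receptors and ETS factors of synaptic transcription, 2 were lower, 1 higher and 5 not called, with a median of 0.03. Over all genes, 6.40% were lower and 4.97% higher. Erbb3, a neuregulin receptor of muscle, fell to 18.9 and 21.0 CPM in siUsf2 1 and 2 and was at 33.7 CPM in siUsf2 3, against 77.5, 76.3 and 81.4 CPM in siControl 1 to 3 (log2 fold change -1.99, adjusted p = 3.54e-14 by edgeR, SE 0.11). Nrg1, which encodes neuregulin, rose by 0.46 (adjusted p = 0.00583), with 46.1, 47.7 and 42.2 CPM in siUsf2 1 to 3 and 31.8, 31.7 and 37.8 CPM in siControl 1 to 3, and was no longer called when siUsf2 2 (adjusted p = 0.0752) or siControl 1 (adjusted p = 0.0529) was left out. Gabpa, an ETS factor of the junction, fell by 0.28 (adjusted p = 0.0351), and its call ended without siUsf2 1, siUsf2 2, siControl 1 or siControl 2, with adjusted p between 0.0641 and 0.345, and under upper-quartile scaling (-0.25, adjusted p = 0.0717). Erbb2 was at -0.18 and not called.

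Of 13 tested denervation-responsive genes and regulators of receptor transcription, 6 were lower, 0 higher and 7 not called, with a median of -0.17. Over all genes, 6.40% were lower and 4.97% higher. Myod1 is among the 6, and its call ended under some settings, as given above. The 6 were also those at an unadjusted p below 0.05, and DESeq2 called the same number. Limma-voom called 5 lower, without Hdac9, a class IIa histone deacetylase (adjusted p = 0.0563), and neither tool called a gene of this list higher. In edgeR the Hdac9 call also ended without siControl 1 (adjusted p = 0.119) or siControl 3 (adjusted p = 0.0518), and it did not hold without siUsf2 1. Myog, the myogenic factor that drives subunit genes after denervation, was at 282 and 329.9 CPM in siUsf2 1 and 2 and 522 CPM in siUsf2 3, against 1036, 1156 and 918 CPM in siControl 1 to 3 (log2 fold change -1.77, adjusted p = 6.44e-13 by edgeR, SE 0.10). Trim63, a muscle ubiquitin ligase, fell by 2.14 (SE 0.28, adjusted p = 1.62e-06), with 2.53, 1.41 and 3.51 CPM in siUsf2 1 to 3 against 8.79, 7.18 and 9.99 CPM in siControl 1 to 3. Gadd45a, a stress gene induced by denervation, fell by 0.61 (adjusted p = 8.06e-05), although siUsf2 3, at 117 CPM, lay within the siControl range of 105 to 136 CPM. Ncam1, the neural cell adhesion molecule, fell by 0.33 (adjusted p = 0.0138), a call that ended without siUsf2 1, siUsf2 2 or siControl 1, with adjusted p between 0.0584 and 0.184. Hdac4, a repressor linked to denervation, was at 0.04 and not called (adjusted p = 0.812), and was named after its values were seen.

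Of 11 other nicotinic receptor subunits, 8 had no read in any library (Chrna3, Chrna4, Chrna5, Chrna6, Chrna7, Chrna9, Chrna10 and Chrnb4). Chrnb2, a neuronal beta subunit, was the subunit with enough reads to test, at 3.41, 2.88 and 2.34 CPM in siUsf2 1 to 3 and 2.97, 2.69 and 3.10 CPM in siControl 1 to 3 (log2 fold change 0.09, 95% interval -0.52 to 0.71, adjusted p = 0.888). The 5 glycosylation enzymes whose human genes are mutated in congenital myasthenia (Gfpt1, Dpagt1, Alg2, Alg14 and Gmppb) were all tested and none was called. By edgeR none of the 5 was at an unadjusted p below 0.05, and DESeq2 and limma-voom also called 0. Their log2 fold changes ran from -0.15 for Dpagt1 to 0.21 for Gmppb.

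**Figure D4:**
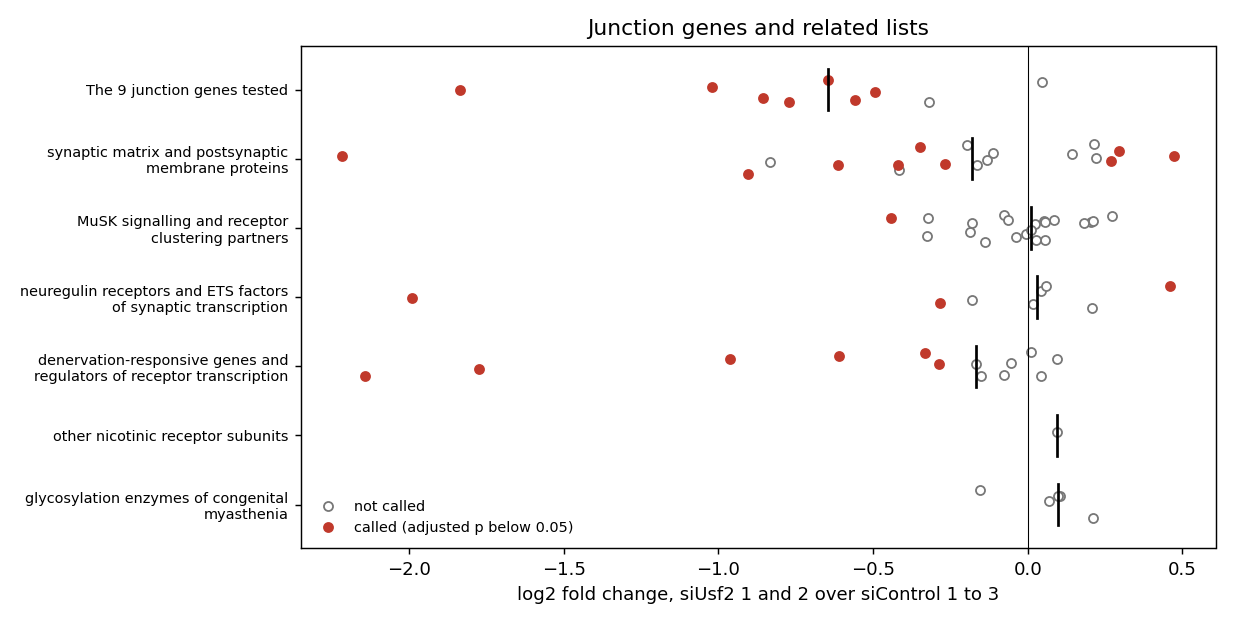
Log2 fold change of siUsf2 1 and 2 over siControl 1 to 3 for the 9 junction members tested and for the tested genes of 6 related lists, 1 point per gene. Red points are called at an adjusted p below 0.05, white points are not, and bars mark list medians. The member median of -0.64 lies left of each list median, which run from -0.18 to 0.10.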

How the data were processed

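The deposited table holds raw read counts per Ensembl gene for the 6 libraries, made by the authors with FastQC, Trimmomatic, HISAT2 and featureCounts on mm10, per the submitters' processing notes. Which annotation and strand setting they used is not stated in these sources. Another deposited table was left out, because it holds CPM of the same counts.

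From the counts, CPM and RPKM (union of GENCODE M21 exons, GRCm38) were computed, with symbols for 52133 of 55414 identifiers. Groups were compared with edgeR 4.0.16 in R 4.3.3: TMM scaling, filterByExpr, a robust quasi-likelihood fit with group as the term, a prior count of 2, and Benjamini-Hochberg adjustment over all genes tested, called at 0.05. Alternatives were RLE, upper-quartile or no scaling, no filter or 1 CPM in 3 libraries, DESeq2 1.42.0, limma 3.58.1 (voom), a replicate block, a threshold of 0.01, and each library left out. The code was tested on simulated data. A total of 3 counts is worth 0.169 to 0.203 CPM in 5 libraries and 0.879 CPM in siUsf2 3.

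The members and lists were chosen with earlier results of these data known, including the separate treatment of siUsf2 3. Named list genes are up to 4 per list with the smallest p in the 5 libraries. The profile neighbours of Chrna1 and Musk are the 3 nearest protein-coding genes each, by TMM-scaled log2 CPM with a prior count of 2. Genes named outside this rule are marked as such. Pseudogene transcripts were aligned to member transcripts with minimap2 and counted as copies at 80% identity, 150 matching bases and 50% of their length or more. Members were also placed relative to each library under TMM and upper-quartile scaling, a check chosen after seeing the data.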

Additional observations from a re-analysis of the deposited data

How the results depend on the processing

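In the 5 libraries, the members called lower numbered 7 under every scaling, in DESeq2 and limma-voom, with the replicate block and at 0.01, 8 with no filter, and 6 to 7 with a siControl library left out. The genes behind these counts were not always the same. Without siControl 2 the 7 held Musk in place of Rapsn, and with no filter Musk was the added call. In the 6 libraries the count was 0, with 1 under no filter, 4 in DESeq2, 1 in limma-voom, 0 with the replicate block, and 0 to 7 with a library left out, the 7 being without siUsf2 3. The log2 fold change of Agrn ran from -0.036 (without siControl 2) to 0.12 (without siUsf2 1) with a library left out, and was also below 0 without siUsf2 2 (-0.034), with adjusted p from edgeR of 0.881 and 0.931 for the negative values. The cause was not tested. List genes called lower (15) ranged from 7 to 17 with a library left out. List genes called higher (4) were 8 with the replicate block, 2 at an adjusted p below 0.01 and 1 to 8 with a library left out. Over all genes of the 5 libraries, the block called 2270 lower and 1719 higher, against 1102 and 855 without it, and upper-quartile scaling called 900 lower and 1124 higher. Same-numbered libraries correlated at -0.07, -0.0049 and -0.07 in their deviations from their group mean. The siUsf2 mean includes siUsf2 3, which stands apart, so these values cannot show whether the numbers are pairs. The labels give replicate numbers only, and these were not taken as pairs. The Chrng share did not move beyond the spread between libraries with the longest transcript as length. The depth of siUsf2 3, 3414565 counts, limits its values. Chrne, with 0 to 4 reads per library, did not pass the filter on low counts in the 5 or the 6 libraries.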
